A study of Homo sapiens with 8 samples.

Results

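The genes described here are 38 enzymes and regulatory subunits of purine and pyrimidine nucleotide synthesis, taken as a list of symbols and matched to the Ensembl identifiers of the count files through GENCODE. They cover the de novo pyrimidine and purine pathways, the supply of phosphoribosyl pyrophosphate (PRPP), the conversion of IMP to AMP and GMP, the kinases that lengthen nucleotides, the making of deoxynucleotides and the salvage of bases and nucleosides. The files listed 60668 genes, 15222 of them passed the filter on low counts, and all 38 synthesis genes were among these. The list was drawn up by gene function and not by a cut on a measured value, but with earlier results of these data known.

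RNA-Seq libraries of polyA+ RNA came from D283 Med cells, a medulloblastoma line with MYC-driven growth that serves here as a model of group 3 medulloblastoma. The study places the line between group 3 and group 4 of this tumour. The cells of all libraries were the hygromycin-selected D283-OMO derivative, which carries a lentiviral, doxycycline (DOX)-inducible, Flag-tagged OMOMYC transgene. OMOMYC is a dominant-negative fragment of MYC that dimerizes with MYC and its partners. The 4 OMO libraries were untreated and the 4 OMO+DOX libraries were made after 72 h of DOX, each from an independent biological replicate. The comparison asks how the RNAs of these enzymes respond when MYC is inhibited. Wild-type D283 Med cells given DOX were not sequenced among the samples analysed here, so the effects of DOX itself and of OMOMYC cannot be told apart.

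Cells build purines stepwise on PRPP up to IMP, from which AMP and GMP are made, and build the pyrimidine ring first and then join it to PRPP to give UMP. Ribonucleotide reductase turns ribonucleoside diphosphates into deoxynucleotides for DNA, thymidylate synthase adds the thymine methyl group, and salvage enzymes reuse bases and nucleosides. MYC is known as a transcriptional activator of many of these genes, CAD among the best studied, and rapidly dividing tumour cells draw heavily on the pathway.

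Total expected counts per library lay between 38390696 and 54020506, and the synthesis genes had between 213 and 32422 counts in a library. Values are counts scaled to the size of the library (CPM, with TMM-adjusted sizes), and differences are log2 fold changes (log2FC) of OMO+DOX over OMO from edgeR's quasi-likelihood test, with p-values adjusted by Benjamini-Hochberg over all genes tested. RNA of MYC, the inhibited factor, was 880.2, 899.5, 1049 and 927.9 CPM in OMO and 1179, 1047, 1115 and 1150 CPM in OMO+DOX (log2FC 0.26, standard error 0.06, adjusted p = 0.002367 from edgeR). The groups overlapped, since OMO replicate 3 lay above OMO+DOX replicate 2. The study reports a strong drop of MYC protein with DOX on an immunoblot, which RNA does not measure. Counts per gene may include OMOMYC reads under MYC, because the transgene is made from MYC sequence. All 7 markers of group 3 medulloblastoma were tested. With DOX, 6 fell past a log2FC of -1 (85.7%, beside 9.81% of all genes), MYC being the exception. OTX2 went from between 1029 and 1071 CPM in OMO to between 508.1 and 512.1 CPM in OMO+DOX, and the others were CRX (log2FC -2.59), NRL (-3.55), IMPG2 (-3.01), NPR3 (-2.57) and GABRA5 (-1.75). Of 4 neural markers listed, 3 were tested and they did not move together. NEUROD1 fell by 2.23 and SYP by 0.18 on the log2 scale, while TUBB3 rose by 0.73 from a low level (1.86 to 3.09 CPM). STMN2 was below the filter. Whether these marker changes have a part in those of the synthesis genes was not tested. Of 10 markers of blood, endothelial, stromal, glial and liver cells, 1 passed the filter, COL1A1 (20.8 to 24.9 CPM), HBB was at 0 in every library, and the summed level of the 10 was 22.8 to 23.7 CPM in OMO and 22.4 to 25.9 CPM in OMO+DOX. The treatment moved much of the transcriptome: at an adjusted p below 0.05, 76.6% of all genes tested were called, 38.1% lower and 38.5% higher with DOX. With scaling by library size only, the median log2FC of all genes was 0.14 instead of 0.01, and the split was 31.0% lower and 47.0% higher.

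Most of the synthesis genes fell with DOX. With an adjusted p below 0.05 from edgeR, 28 of the 38 were lower, or 73.7%, where 38.1% of all genes were lower, and 5 were higher, or 13.2%, where 38.5% of all genes were higher. The largest falls were those of RRM2, TK1 and TYMS, followed by RRM1 and the purine enzyme ADSL, which did not differ beyond their standard errors, and the largest rise was that of DCK, a salvage kinase. The 5 genes that were not called were UMPS, PRPSAP2, ADSS, HPRT1 and TK2. Summed over the list, the level was 4163 ± 171 CPM (SD, n = 4) in OMO and 2832 ± 45.8 CPM (SD, n = 4) in OMO+DOX, which is 68.0% of the OMO level.

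The size of the change was moderate for most of them. The median log2FC of the 38 was -0.41, beside 0.01 for all genes tested, and the range ran from -2.66 to 1.47. In all, 4 genes fell past a log2FC of -1, or 10.5%, beside 9.81% of all genes. This count rests on genes near the threshold: without OMO replicate 1 it was 7 of 38, beside 8.63% of all genes. DCK was the 1 gene that rose past 1, where 11.0% of all genes did. At an FDR below 0.001 with an absolute log2FC above 2, RRM2 was the 1 gene that passed, where 2.75% of all genes passed as lower and 4.38% as higher. The groups of 4 libraries did not overlap in 27 genes that were lower and 5 that were higher with DOX. Among all genes, 35.4% were lower and 36.3% were higher without overlap. The groups overlapped in UMPS, PPAT, ADSS, GUK1, HPRT1 and TK2.

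**Figure D1:**
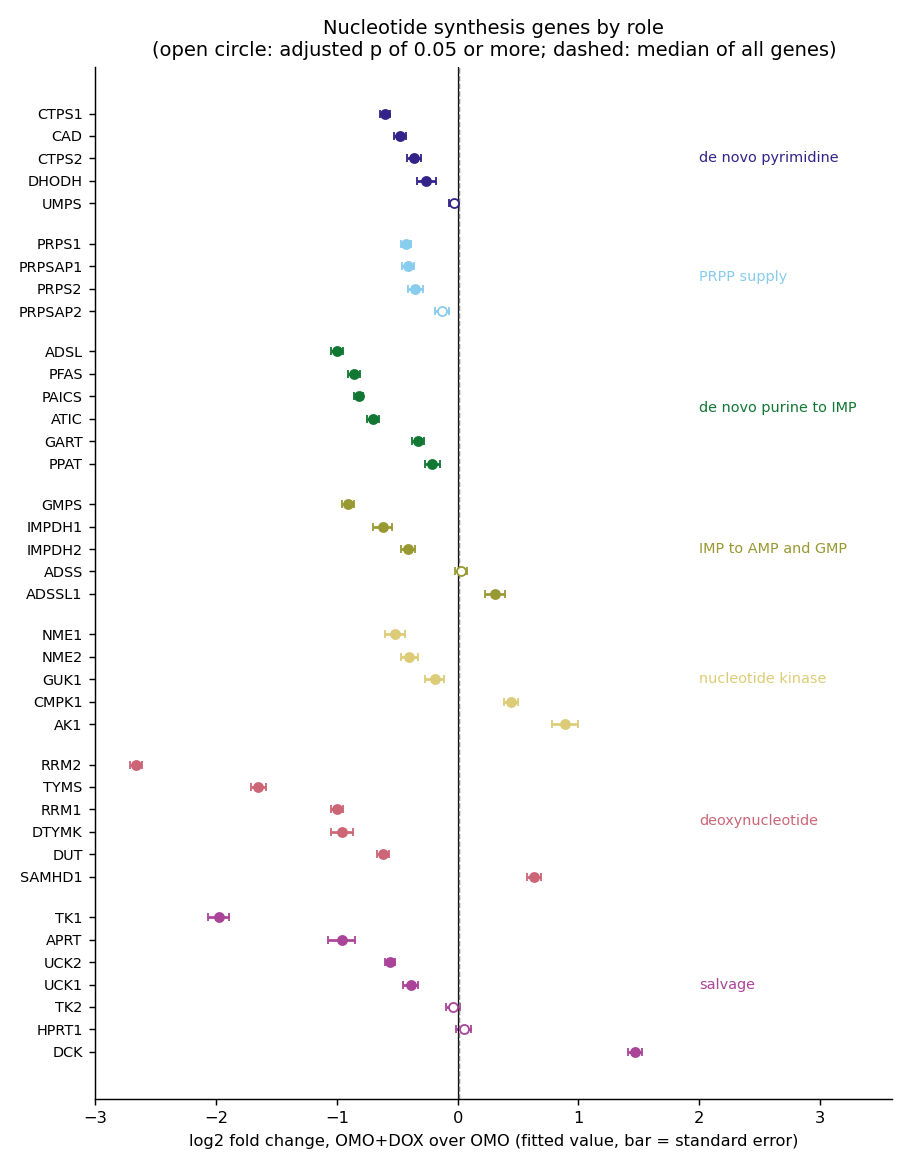
Fitted log2 fold change of OMO+DOX over OMO (x axis) for each of the 38 genes (y axis), grouped and coloured by role, with the standard error as the bar. Open circles mark the 5 genes with an adjusted p of 0.05 or more, and the dashed line is the median of all genes tested. Points to the left of 0 outnumber those to the right in every role, RRM2 lies farthest left at -2.66 and DCK farthest right at 1.47.

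In de novo pyrimidine synthesis, 4 of 5 genes fell (80.0%, beside 38.1% of all genes) and 1 was not called, with a median log2FC of -0.36. CAD, the trifunctional enzyme that starts the pathway, measured 163.2, 158.9, 158.5 and 167.1 CPM in OMO. In OMO+DOX it measured 119.4, 108.9, 116.4 and 118.4 CPM. Every OMO library lay above every OMO+DOX library, and CAD fell to 71.5% of its OMO level (log2FC -0.48, standard error 0.05, adjusted p = 1.33e-06 from edgeR). CAD (ENSG00000084774.14) lies on the plus strand of chromosome 2, from 27217390 to 27243943 in GRCh38. CTPS1 and CTPS2, which convert UTP to CTP, fell by 0.60 and 0.36 on the log2 scale. DHODH, the mitochondrial dehydrogenase of the pathway, had the lowest level of the 5 per kb of exon length and measured 14.2 ± 1.19 CPM (SD, n = 4) in OMO. It fell by 0.26 on the log2 scale, a call that was lost with scaling by library size only, where the log2FC of DHODH was -0.13 (adjusted p = 0.1157 from edgeR). UMPS, which carries out the last steps to UMP, stood at 43.7 ± 0.563 CPM (SD, n = 4) in OMO and 42.8 ± 1.49 CPM (SD, n = 4) in OMO+DOX, with a log2FC of -0.03 and an adjusted p of 0.5304 from edgeR.

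PRPP, the activated ribose phosphate that both pathways need, is made by PRPS1 and PRPS2 in complexes with the regulatory proteins PRPSAP1 and PRPSAP2. Of these 4 genes 3 fell (75.0%, beside 38.1% of all genes). The log2FC was -0.43 for PRPS1, -0.35 for PRPS2 and -0.41 for PRPSAP1. PRPSAP2 missed the threshold, at -0.13 with an adjusted p of 0.05158 from edgeR, although its groups did not overlap. The summed level of the 4 in OMO+DOX was 78.3% of that in OMO.

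All 6 genes of the purine pathway from PRPP to IMP fell, where 38.1% of all genes were lower. Their median log2FC was -0.76. Their summed level was 1051 ± 12.1 CPM (SD, n = 4) in OMO and 646.3 ± 7.77 CPM (SD, n = 4) in OMO+DOX, or 61.5%. ADSL, adenylosuccinate lyase, which acts both before IMP and on the way to AMP, changed most. Its values were 144.7, 145.0, 162.5 and 147.3 CPM in OMO and 73.28, 72.94, 76.85 and 77.49 CPM in OMO+DOX. The groups lay well apart, and ADSL in OMO+DOX was at 50.1% of its OMO level, which stops just short of a log2FC of -1 (adjusted p = 6.324e-09 from edgeR). PFAS, which adds a nitrogen from glutamine, fell by 0.86, and PAICS, which carries out the carboxylation and the coupling of aspartate that follow, fell by 0.82 on the log2 scale. PAICS, the most abundant of the 6 per kb of exon length, measured 496 ± 8.75 CPM (SD, n = 4) in OMO and 281 ± 6.87 CPM (SD, n = 4) in OMO+DOX. ATIC, which closes the purine ring, fell by 0.70, and the trifunctional GART fell by 0.33. PPAT, the amidotransferase that commits PRPP to the pathway, changed least, with a log2FC of -0.21 (adjusted p = 0.005438 from edgeR). Its groups overlapped, since OMO replicate 3 at 70.87 CPM lay below OMO+DOX replicate 2 at 72.14 CPM. With scaling by library size only, the log2FC of PPAT was -0.09 with an adjusted p of 0.2243 from edgeR.

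PPAT and PAICS are neighbours that start head to head on chromosome 4. PPAT (ENSG00000128059.8) is a minus-strand gene from 56393362 to 56435615 and PAICS (ENSG00000128050.8) on the plus strand from 56435741 to 56464579 in GRCh38, with 125 bases between them. The pair changed by -0.21 and -0.82 on the log2 scale. The windows from 250 bases before to 50 bases after a RefSeq start (GRCh38.p14) share 236 bases for this pair. MYC and its partner MAX are known to bind the letters CACGTG, called an E-box, and these are shown in capitals in the promoters of PAICS and of ATIC. The PAICS window shown was picked because it holds the letters. It is chr4:56435502-56435801 on the plus strand, and its E-box begins at base 40 after the start. The ATIC window is chr2:215311809-215312108 on the plus strand, with an E-box on each side of the start.
PAICS: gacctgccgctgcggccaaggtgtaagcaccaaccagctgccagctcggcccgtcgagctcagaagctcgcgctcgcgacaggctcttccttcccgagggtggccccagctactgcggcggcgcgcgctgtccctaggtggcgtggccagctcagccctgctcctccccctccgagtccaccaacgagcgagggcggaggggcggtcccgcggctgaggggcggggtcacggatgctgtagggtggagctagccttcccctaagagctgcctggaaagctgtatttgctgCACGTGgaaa
ATIC: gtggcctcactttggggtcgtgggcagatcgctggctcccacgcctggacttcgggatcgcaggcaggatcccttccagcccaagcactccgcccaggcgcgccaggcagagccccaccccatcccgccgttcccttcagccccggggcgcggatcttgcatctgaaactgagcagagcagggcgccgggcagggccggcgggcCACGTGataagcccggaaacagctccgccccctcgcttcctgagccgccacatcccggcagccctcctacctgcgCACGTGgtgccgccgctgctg

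CACGTG, which reads the same on both strands, stood in a window of 6 of the 36 synthesis genes that have one in the RefSeq table, or 16.7%: ATIC, DCK, DHODH, NME1, PAICS and PPAT. ADSL and IMPDH2 were not matched. Of the 10646 genes tested that have a window, 12.7% held the letters, as did 7.26% of all 35116 windows. PAICS and PPAT hold the same E-box, in the bases that their windows share, so it is counted for both. The 6 genes differed in their response, from -0.82 for PAICS to 1.47 for DCK. Genes with a window that fell by more than PAICS, among them RRM2, TK1, TYMS, GMPS and PFAS, held none. Whether the letters have a part in the changes was not tested. A match is a description of the letters in this window. Bases beyond 50 after the start were not searched, so a gene outside the 6, CAD among them, may hold CACGTG there.

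Among the 5 genes that turn IMP into AMP and GMP, those of the GMP branch fell. IMPDH2, the main form of the enzyme that sets the rate of the GMP branch, had the highest level of the 38 per kb of exon length and measured 585.2 ± 51.6 CPM (SD, n = 4) in OMO and 441.9 ± 19.7 CPM (SD, n = 4) in OMO+DOX, a log2FC of -0.41. IMPDH1 fell by 0.62 and GMPS, which aminates XMP to GMP, by 0.91 on the log2 scale. In the AMP branch, ADSS stood at 71.0 ± 2.50 CPM (SD, n = 4) in OMO and 72.7 ± 2.63 CPM (SD, n = 4) in OMO+DOX and was not called (log2FC 0.03, adjusted p = 0.5328 from edgeR). Its muscle-type relative ADSSL1 rose from a low level. ADSSL1 had 5.163, 5.573, 5.164 and 4.773 CPM in OMO and 5.895, 6.28, 6.823 and 6.605 CPM in OMO+DOX. The groups lay close but did not overlap (log2FC 0.31, standard error 0.08, adjusted p = 0.004347 from edgeR).

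Of the 5 nucleotide kinases, 3 were lower (60.0%, beside 38.1% of all genes). The other 2 were higher (40.0%, near the 38.5% of all genes). AK1, an adenylate kinase, had 10.22, 12.42, 15.19 and 11.92 CPM in OMO and 23.21, 20.23, 24.1 and 24.9 CPM in OMO+DOX. All OMO+DOX libraries were above all OMO libraries (log2FC 0.89, standard error 0.11, adjusted p = 1.152e-05 from edgeR). CMPK1, which phosphorylates UMP, CMP and dCMP, had 89.88, 82.32, 82.88 and 81.33 CPM in OMO and 108.2, 122.6, 116.9 and 107.2 CPM in OMO+DOX. The groups did not overlap (log2FC 0.44, standard error 0.06, adjusted p = 2.159e-05 from edgeR). NME1 and NME2, the nucleoside diphosphate kinases that make triphosphates, fell by 0.52 and 0.40 on the log2 scale. Both had fractional counts in all 8 libraries, as did the overlapping readthrough gene NME1-NME2, whose values ranged from 26.7 to 56.2 CPM in OMO and from 27.9 to 37.3 CPM in OMO+DOX and which was not called (log2FC -0.38, adjusted p = 0.07191 from edgeR). With the 3 genes summed in place of NME1, the log2FC of NME1 was -0.44 (adjusted p = 0.0002034 from edgeR). GUK1, guanylate kinase, was called at -0.19 with an adjusted p of 0.04053 from edgeR, its groups overlapped, and the call was lost in 7 of the alternative fits, among them scaling by library size only (log2FC of GUK1 -0.06).

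Genes of deoxynucleotide synthesis had the lowest median log2FC of the 7 roles. Of 6 genes 5 were lower (83.3%, beside 38.1% of all genes) and 1 was higher (16.7%, beside 38.5%), with a median log2FC of -0.98. Their summed level went from 593.0 ± 24.0 CPM (SD, n = 4) in OMO to 232.9 ± 4.52 CPM (SD, n = 4) in OMO+DOX, or 39.3%. RRM2, the small subunit of ribonucleotide reductase whose level follows S phase, had 193.1, 209.6, 198.6 and 200.8 CPM in OMO and 33.5, 31.2, 31.1 and 30.95 CPM in OMO+DOX. The spread within each group was small beside the gap between them, and RRM2 was 6.33-fold lower with DOX (log2FC -2.66, standard error 0.05, adjusted p = 1.318e-12 from edgeR). RRM1, the large subunit, had 99.39, 106.6, 105.8 and 98.47 CPM in OMO and 52.19, 49.09, 54.21 and 49.16 CPM in OMO+DOX. It fell to 49.9% of its OMO level, just past a log2FC of -1, without overlap (standard error of the log2FC 0.05, adjusted p = 5.506e-09 from edgeR). TYMS, thymidylate synthase, had 143.4, 152.5, 168.9 and 148.5 CPM in OMO and 48.32, 49.29, 48.11 and 49.93 CPM in OMO+DOX. The groups lay far apart (log2FC -1.65, standard error 0.06, adjusted p = 1.79e-10 from edgeR).

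DTYMK, which phosphorylates dTMP, fell by 0.96 and DUT, which removes dUTP and yields dUMP, by 0.62 on the log2 scale. SAMHD1 works in the other direction, since it degrades deoxynucleoside triphosphates, and it rose. SAMHD1 had 20.67, 17.4, 18.42 and 20.28 CPM in OMO and 29.28, 29.01, 29.95 and 30.64 CPM in OMO+DOX. Every OMO+DOX library was higher than every OMO library (log2FC 0.63, standard error 0.06, adjusted p = 1.491e-06 from edgeR).

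RRM2B, the p53-inducible small subunit that can stand in for RRM2, is outside the list of 38 and was set beside RRM2 after its values were seen. It had 81.64, 83.95, 70.62 and 82.99 CPM in OMO and 176.3, 189.7, 176.9 and 160.9 CPM in OMO+DOX (log2FC 1.14, standard error 0.07, adjusted p = 2.269e-08 from edgeR). Per kb of exon length, RRM2 was 2.62 times RRM2B in OMO and 0.188 times RRM2B in OMO+DOX. On that scale RRM2 was above RRM2B in all OMO libraries and below it in all OMO+DOX libraries.

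Genes of DNA replication and cell division fell along with those of deoxynucleotide synthesis. Of a list of 19 such genes 18 were lower (94.7%, beside 38.1% of all genes), and CCNE1 was not called (log2FC 0.12). Past a log2FC of -1 there were 17 of the 19 (89.5%, beside 9.81% of all genes). Their summed level was 3377 to 3705 CPM in OMO and 1092 to 1202 CPM in OMO+DOX, with a median log2FC of -1.66. The part of this change in the falls of RRM2, RRM1, TYMS, DTYMK and TK1 was not tested. In RNA from whole cultures, fewer cells in S phase and less of these RNAs in each cell cannot be told apart.

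Of 7 salvage genes 4 were lower (57.1%, beside 38.1% of all genes), 1 was higher (14.3%, beside 38.5%) and 2 were not called. TK1, the cytosolic thymidine kinase of dividing cells, had 42.44, 51.4, 54.6 and 51.95 CPM in OMO and 13.6, 10.89, 13.16 and 12.86 CPM in OMO+DOX. It was 3.97-fold lower with DOX, without overlap (log2FC -1.98, standard error 0.09, adjusted p = 2.041e-09 from edgeR). TK2, the mitochondrial thymidine kinase, had 15.65, 15.97, 15.17 and 13.36 CPM in OMO and 13.98, 14.6, 14.88 and 14.9 CPM in OMO+DOX. Its groups overlapped, and it was not called (log2FC -0.04, adjusted p = 0.5393 from edgeR). DCK, which phosphorylates deoxycytidine and other deoxynucleosides and activates several nucleoside drugs, went the other way, with 29.16, 30.87, 27.0 and 28.48 CPM in OMO and 78.19, 86.65, 77.61 and 76.92 CPM in OMO+DOX. It was 2.76-fold higher with DOX, without overlap (log2FC 1.47, standard error 0.06, adjusted p = 6.202e-10 from edgeR). APRT, which salvages adenine, fell by 0.96, while HPRT1, which salvages hypoxanthine and guanine, was not called (log2FC 0.05, adjusted p = 0.4214 from edgeR). The uridine and cytidine kinases UCK1 and UCK2 fell by 0.39 and 0.56 on the log2 scale.

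**Figure D2:**
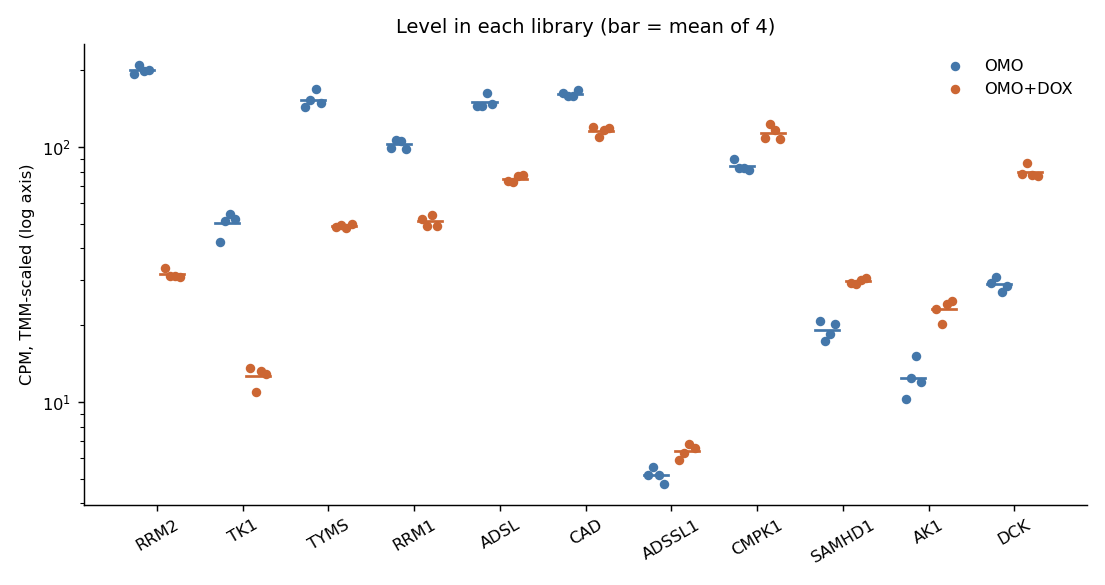
Level of 11 synthesis genes (x axis) in CPM on a log axis (y axis), with a point for each of the 4 OMO (blue) and 4 OMO+DOX (orange) libraries and a bar for the mean. The libraries of the 2 groups do not overlap in any of the 11, and RRM2, TK1 and TYMS show the widest gaps below, DCK the widest above.

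The promoters of RRM2, TK1 and DCK are shown because these genes carry the largest falls and the largest rise. RRM2 (ENSG00000171848.15) lies on the plus strand of chromosome 2 from 10120698 to 10131419, TK1 (ENSG00000167900.12) on chromosome 17, minus strand, from 78174075 to 78187233, and DCK (ENSG00000156136.10) on the plus strand of chromosome 4 from 70992538 to 71030914 in GRCh38. In RRM2 (chr2:10122489-10122788, plus strand) and TK1 (chr17:78187003-78187302, minus strand) the capitals mark CCAAT or, on the other strand, ATTGG, the letters known to be bound by the factor NF-Y at many cell cycle genes. RefSeq gives 2 windows for each of these genes, and the one with more matches is shown. It holds 3 matches in one orientation for RRM2 and 2 in the other for TK1, while the other RRM2 window holds 1 match and the other TK1 window 0. In DCK (chr4:70993399-70993698, plus strand) the capitals mark an E-box that begins at base -116 from the start.
RRM2: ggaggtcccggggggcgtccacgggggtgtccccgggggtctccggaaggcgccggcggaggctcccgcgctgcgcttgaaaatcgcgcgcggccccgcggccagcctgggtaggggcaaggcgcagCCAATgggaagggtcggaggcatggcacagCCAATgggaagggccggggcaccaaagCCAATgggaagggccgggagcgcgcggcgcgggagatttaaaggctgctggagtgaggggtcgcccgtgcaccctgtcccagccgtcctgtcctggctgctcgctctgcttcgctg
TK1: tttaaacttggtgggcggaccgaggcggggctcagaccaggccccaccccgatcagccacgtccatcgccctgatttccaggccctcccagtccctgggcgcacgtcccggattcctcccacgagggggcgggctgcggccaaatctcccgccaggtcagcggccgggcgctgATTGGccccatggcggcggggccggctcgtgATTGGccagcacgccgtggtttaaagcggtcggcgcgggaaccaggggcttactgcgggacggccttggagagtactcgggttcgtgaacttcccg
DCK: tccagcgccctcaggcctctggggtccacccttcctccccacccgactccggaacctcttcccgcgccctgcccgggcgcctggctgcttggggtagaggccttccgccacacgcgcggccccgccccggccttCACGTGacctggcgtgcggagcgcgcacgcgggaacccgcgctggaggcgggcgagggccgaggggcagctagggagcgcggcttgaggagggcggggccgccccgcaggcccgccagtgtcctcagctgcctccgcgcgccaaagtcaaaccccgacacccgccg

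CCAAT was searched on both strands after the values were seen and stood in 12 of the 36 genes with a window, or 33.3%, beside 43.5% of the genes tested and 34.6% of all windows. The 12 genes were CAD, DHODH, DTYMK, GART, NME1, PRPS1, PRPSAP2, RRM1, RRM2, SAMHD1, TK1 and UCK2. Of these SAMHD1 rose, PRPSAP2 was not called and the others fell. TYMS, whose fall was among the largest, held none. Of 4 strings of the kind that E2F factors are known to bind (TTTGGCGC, TTTGCCGC, TTTCCCGC and TTTCGCGC), also chosen after the values were seen, at least 1 stood in 5 of the 36, or 13.9%, beside 6.47% of the genes tested and 3.31% of all windows. The 5 genes were DCK, DUT, GART, PRPS2 and TYMS, of which DCK rose and the others fell. None of the strings searched contains another.

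For 8 pairs of isozymes or partners, the log2 ratio of their CPM within each library was compared between the groups with a two-sided exact permutation test over the libraries, whose smallest possible p is 0.02857. The ratio does not depend on how libraries are scaled. The pair TK1/TK2 changed most, from 1.73 ± 0.226 (SD, n = 4) in OMO to -0.21 ± 0.159 (SD, n = 4) in OMO+DOX (exact permutation p = 0.02857, adjusted over the 8 pairs 0.04571). Per kb of exon length, TK1 RNA went from 12.8 times to 3.32 times that of TK2.

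In 4 other pairs the ratio changed by less, without overlap between the groups, each with an exact permutation p of 0.02857 and an adjusted p of 0.04571. CTPS1 lost against CTPS2 (-0.24), PRPSAP1 against PRPSAP2 (-0.28), NME1 against NME2 (-0.12) and ADSS against ADSSL1 (-0.28 on the log2 scale). NME1 and NME2 had fractional counts in all 8 libraries, so their ratio may also depend on how shared reads, also those of NME1-NME2, were divided. For CTPS1/CTPS2 the exact permutation p was 0.05714 without OMO+DOX replicate 1, 2 or 4. The ratios of PRPS1 to PRPS2 (-0.07) and of IMPDH1 to IMPDH2 (-0.21) missed the threshold, each with an exact permutation p of 0.1143. UCK1 gained against UCK2 by 0.18 with an exact permutation p of 0.05714 and an adjusted p of 0.07619. Without OMO replicate 3 the p fell to 0.02857 for UCK1/UCK2 (0.23) and for PRPS1/PRPS2 (-0.10).

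**Figure D3:**
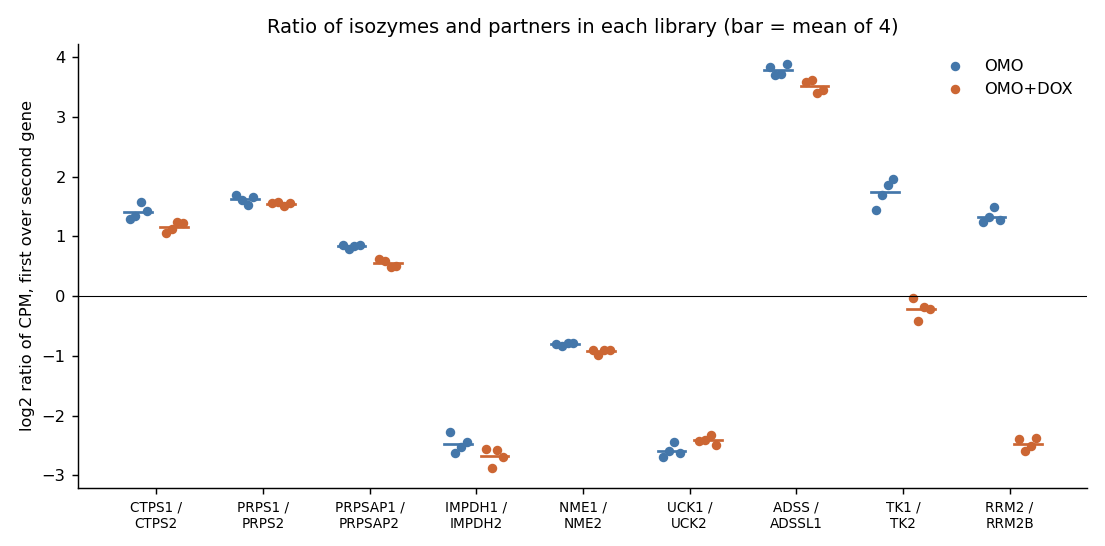
Log2 ratio of the CPM of the first over the second gene (y axis) in each library for 8 pairs of isozymes or partners and for RRM2 over RRM2B (x axis), with a bar for the mean of the 4 OMO (blue) or 4 OMO+DOX (orange) libraries. TK1/TK2 falls from 1.73 to -0.21 and RRM2/RRM2B from 1.33 to -2.47, while the other pairs move by at most 0.28.

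Levels of different genes can be compared only per length, so CPM were divided by the union exon length in kb. On this scale the 38 genes spanned a 236-fold range in OMO, with a median of 19.3 CPM per kb, and a 144-fold range in OMO+DOX, with a median of 12.3 CPM per kb. IMPDH2 was highest in both groups (211.0 and 159.4 CPM per kb), followed by NME2 (120.5 and 91.1) and PAICS (66.0 and 37.4). TYMS came next in OMO at 62.1 ± 4.45 CPM per kb (SD, n = 4), less than the SD of TYMS below PAICS, and was at rank 8 in OMO+DOX at 19.8 ± 0.344 CPM per kb (SD, n = 4). RRM2 went from rank 6 of 38 to rank 30, from 37.7 to 5.95 CPM per kb. DCK went from rank 27 to rank 6, from 8.95 to 24.7 CPM per kb. ADSSL1, SAMHD1, DHODH, TK2 and AK1 were the lowest in OMO, between 0.895 and 4.66 CPM per kb, and ADSSL1 stayed lowest with DOX at 1.11 CPM per kb. Several ranks depend on the length used. With the longest coding transcript as the length, NME2 (366.2) stood above IMPDH2 (356.2 CPM per kb) in OMO. PAICS was then at rank 5 in OMO, behind NME1 and TYMS. In OMO+DOX, DCK was at rank 10 and DHODH, not ADSSL1 (rank 36), was lowest. RRM2 went from rank 7 to rank 29.

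**Figure D4:**
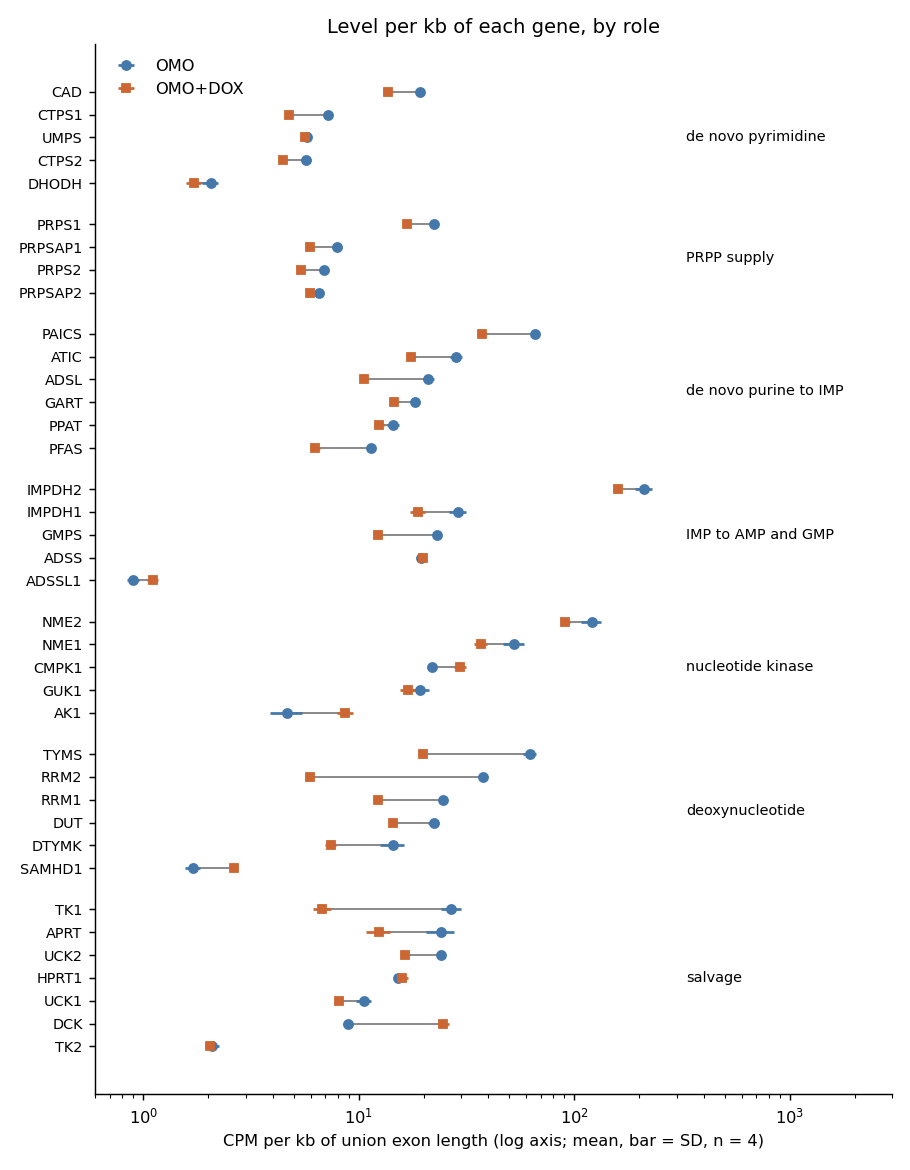
Level of each of the 38 genes (y axis, grouped by role) in CPM per kb of union exon length on a log axis (x axis), as the mean of 4 OMO (blue circles) and 4 OMO+DOX (orange squares) libraries with the SD as the bar, joined by a line. Most squares lie to the left of their circles, with the longest line for RRM2 (37.7 to 5.95), and DCK crosses to the right (8.95 to 24.7).

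Genes of the wider pathway moved in both directions. Over 83 further genes of salvage, breakdown, precursor supply and transport, 67 were tested, of which 36 were lower (53.7%, beside 38.1% of all genes) and 19 were higher (28.4%, beside 38.5%), with a median log2FC of -0.19. Of the enzymes of other salvage and interconversion steps, 26 of 32 were tested, and 13 fell and 8 rose (30.8%). Besides RRM2B, UPP1, which cleaves uridine, had 0.910 ± 0.0308 CPM (SD, n = 4) in OMO and 2.52 ± 0.354 CPM (SD, n = 4) in OMO+DOX. UPP1 was at or below 1 CPM in every OMO library and passed the filter on low counts only through OMO+DOX, so that its log2FC of 1.47 followed in direction from the filter. It is 1 of the 8 counted as risen, and no other gene of these lists passed through 1 group only. In the same list the adenylate kinase AK5 fell by 1.23. Of the enzymes that break down nucleotides or clean the pool, 12 of 18 were tested, 5 fell (41.7%, near the share of all genes) and 3 rose (25.0%). The cytosolic nucleotidase NT5C2, which acts on IMP and GMP, fell by 1.18 on the log2 scale, from 411.8 ± 7.80 to 181.8 ± 6.04 CPM (SD, n = 4).

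Folate enzymes supply the one-carbon units for purines and thymidylate. Of 15 genes 13 were tested, with a median log2FC of -0.77. Of these 13, 8 fell (61.5%, beside 38.1% of all genes) and 2 rose (15.4%, beside 38.5%). MTHFD1, which makes formyl-tetrahydrofolate for GART and ATIC, fell by 1.16 and SHMT1 by 1.34 on the log2 scale. The 11 genes for ribose phosphate, glutamine and aspartate supply split into 5 falls (45.5%) and 6 rises (54.5%). Among all genes, 38.1% were lower and 38.5% higher. GLUL, glutamine synthetase, had 4932, 4629, 4643 and 4947 CPM in OMO and 1594, 1582, 1568 and 1636 CPM in OMO+DOX, a log2FC of -1.59, and GOT1, which makes aspartate, rose by 1.21. All 5 nucleoside transporters that were tested, of 7 listed, fell, where 38.1% of all genes were lower. SLC28A3, a concentrating transporter, had 21.3, 20.51, 18.32 and 21.85 CPM in OMO and 2.09, 2.467, 1.877 and 1.937 CPM in OMO+DOX. It was 9.79-fold lower (log2FC -3.30, adjusted p = 4.731e-11 from edgeR). The equilibrative family members SLC29A4 and SLC29A3 fell by 2.17 and 1.24 on the log2 scale.

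**Figure D5:**
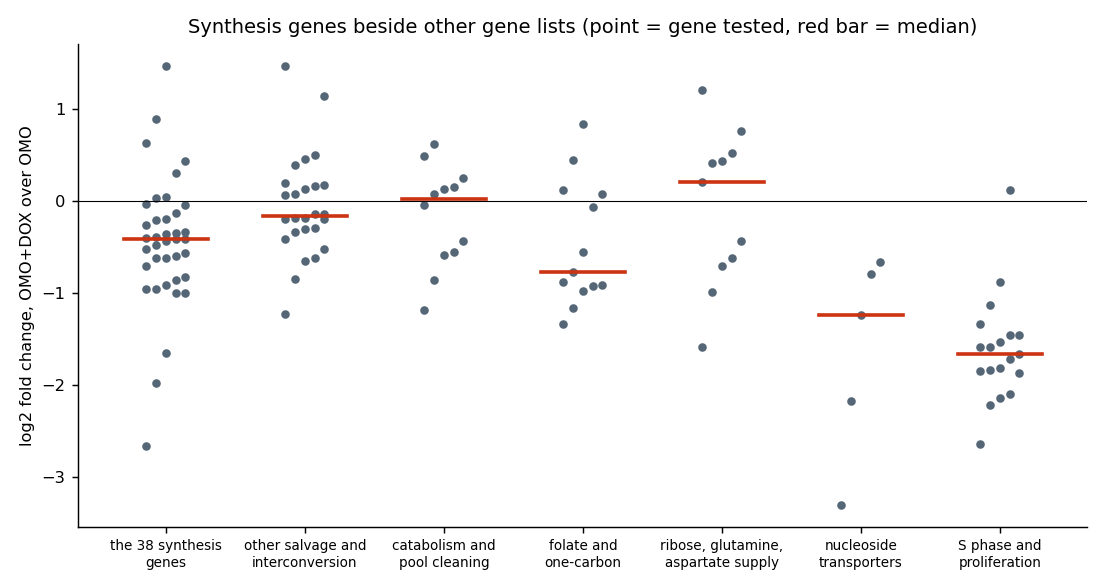
Fitted log2 fold change of OMO+DOX over OMO (y axis) of each gene tested in the list of 38 synthesis genes, in 5 lists of other pathway genes and in the list for S phase and proliferation (x axis), with the median of each list as a red bar. The median is -0.41 for the synthesis genes, -0.77 for folate genes, -1.24 for nucleoside transporters and -1.66 for S phase and proliferation, and 0.21 for ribose, glutamine and aspartate supply.

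Among the OMO libraries, replicate 3 was the highest for 22 of the 38 genes (39.7% of all genes tested) and replicate 1 the lowest for 19 (28.4%). Among the OMO+DOX libraries, replicate 2 was the lowest for 17 (33.5%). Without OMO replicate 3 and OMO+DOX replicate 2 together, 27 of the 38 genes were lower and 5 were higher, and the median log2FC was -0.39. Without OMO replicate 1, 7 genes fell past a log2FC of -1, the additional ones being ADSL, DTYMK and APRT, and 2 genes, RRM2 and TK1, passed as lower at the stricter thresholds.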

How the data were processed

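Per the labels and the study's methods, polyA+ RNA of D283-OMO cells was made into stranded libraries, and the authors used Trim Galore for trimming, STAR for alignment to GRCh38 with GENCODE release 32 and RSEM for counting. The authors deposited the expected counts per gene, 1 file per library, not normalized. RSEM divides reads that match several genes, so 19 of the 38 genes had a count more than 0.005 from a whole number in at least 1 library, 11 of them in all 8 and 5 in just 1. Whether counting used the strand is not given in the sources used here. Named pseudogenes of 11 of the genes held at most 4.66% of the counts of gene and pseudogenes together. Total counts limit the precision only slightly at these levels, and intervals of counting error alone would treat PCR copies as separate molecules.

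Samples were grouped by their titles. Expected counts were rounded, genes were kept where at least 4 of 8 libraries exceeded 1 CPM, and OMO+DOX was compared with OMO by edgeR 4.0.16 (TMM, quasi-likelihood test) in R 4.3.3, adjusted by Benjamini-Hochberg over 15222 genes. The standard error of a log2FC is its size over the square root of the F statistic. The filter follows the study's Results, and the stricter thresholds (FDR below 0.001, absolute log2FC above 2) follow its Methods. The study is not uniform here: its Methods ask for more than 4 samples in the filter, and its Results give a looser FDR. Exact permutation tests enumerated 70 divisions of the libraries. Coordinates, symbols and lengths came from GENCODE 29, promoter sequences from RefSeq. Scripts used Python 3.11.15. The models were tested on simulated data.

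The 38 genes, the lists and the tests were chosen with earlier results of these data known. Values in every library are given for the 5 largest falls, the 5 largest rises, CAD and pairs with a ratio change above 0.5, and genes of the 5 other pathway lists are named past an absolute log2FC of 1. Single genes of the marker and S phase lists are named outside this rule. Per-library values of MYC, and of GLUL, SLC28A3 and RRM2B among those genes, were added after values were seen, as were NME1-NME2 and its sum. The alternatives were DESeq2 1.42.0 or its size factors, library size only, the likelihood ratio test, other filters, summed pseudogenes, the replicate number as a block, another gene length and each replicate left out. The libraries named as left out together were chosen after seeing the data. Transcript-level values were not analysed here.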

Additional observations from a re-analysis of the deposited data

Results flagged for a closer look

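In groups of 4 libraries, a library was marked where its gap to the nearest other exceeded the critical share of the range in Dixon's test. Of 76 groups tested, 8 were marked, where chance alone marks about 1 in 20 groups, or 3.8. The genes share the same libraries, so the groups are not independent, and 8 beside 3.8 cannot be read as an excess. OMO replicate 3 was the library in 5 of the marked groups. It was high for ADSL (162.5 CPM, the others 144.7 to 147.3), ATIC (122.6 CPM, the others 106.1 to 108.8), GMPS (213.4 CPM, the others 201.0 to 202.1) and PRPSAP1 (59.28 CPM, the others 53.42 to 53.84), and low for PPAT (70.87 CPM, the others 80.65 to 81.8). OMO+DOX replicate 2 was low for PFAS (37.4 CPM, the others 41.59 to 42.23) and high for DCK (86.65 CPM, the others 76.92 to 78.19). OMO+DOX replicate 1 was high for RRM2 (33.5 CPM, the others 30.95 to 31.2). In these 8 genes the marked library stayed on its group's side of the other group, except in PPAT.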

How the results depend on the processing

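The counts of 28 lower and 5 higher genes moved to at most 29 and 7 and at least 25 and 5 over the alternative normalizations, tests, filters and left-out replicates, and to 25 and 4 at an adjusted p below 0.001. With scaling by library size only, the median log2FC was -0.28 and 2 genes, DCK and AK1, rose past a log2FC of 1, the log2FC of UMPS (0.10) and the log2FC of TK2 (0.08) changed sign, and DHODH, PPAT and GUK1 lost their calls while ADSS and HPRT1 gained one. With no filter on low counts, 2 genes (RRM2 and TK1) were lower at the stricter thresholds. Without OMO replicate 3 and OMO+DOX replicate 2, an alternative chosen after seeing the data, 2 genes rose past 1. Leaving out each replicate in turn, 3 to 7 genes fell past -1 and 1 to 2 passed as lower at the stricter thresholds, the most without OMO replicate 1. The log2FC of UMPS then ranged from -0.06 to 0.02 and the log2FC of ADSS from -0.01 to 0.07, with the sign turned without OMO+DOX replicate 4 for UMPS and without OMO replicate 3 for ADSS (-0.01 also with OMO+DOX replicate 2 left out as well), and neither gene was called. PRPSAP2 passed the threshold in 5 alternatives and GUK1 missed it in 7. The ratio change ranged from -0.28 to -0.19 for CTPS1/CTPS2, from -0.10 to -0.05 for PRPS1/PRPS2 and from 0.14 to 0.23 for UCK1/UCK2. With the longest coding transcript as the length, the median level was 26.5 CPM per kb in OMO and 16.9 in OMO+DOX. The cause of these changes was not tested.

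Replicates with the same number deviated together with r of 0.157, 0.144, 0.241 and -0.176, and not every library correlated best with its own number. With 4 libraries per group, such weak correlations cannot decide whether the numbers pair the samples. With the replicate number as a block, 29 genes were lower and 5 higher. In an exact sign-flip test over the 4 numbers, whose smallest p is 0.125, the ratio changes of CTPS1/CTPS2 (-0.24), PRPSAP1/PRPSAP2 (-0.28), NME1/NME2 (-0.12), ADSS/ADSSL1 (-0.28) and TK1/TK2 (-1.95) could not pass the threshold.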

Other observations

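Some enzymes of nucleotide breakdown were below the filter and were not tested. NT5E, the ecto-nucleotidase that turns extracellular AMP into adenosine, was at 0 CPM in 2 OMO libraries and at 0.0408 and 0.0224 CPM in the others, and at 0.690, 0.673, 0.762 and 0.616 CPM in OMO+DOX. AMPD1, the muscle form of AMP deaminase, was at 0 to 0.0448 CPM in OMO and at 0.237 to 0.374 CPM in OMO+DOX. UPB1, which completes pyrimidine breakdown, was at 0.224 to 0.407 CPM in OMO and at 0.661 to 0.887 CPM in OMO+DOX. The groups did not overlap in these 3 genes, picked with their values in view, and all 3 stayed below 1 CPM. CDA, which deaminates cytidine, UPP2 and the transporter SLC28A1 had 0 counts in all 8 libraries. In the fit of the tested genes, the folate-cycle enzymes SHMT2 and MTHFD2 of the mitochondrion fell by 0.77 and 0.91 on the log2 scale while MTHFD2L rose by 0.45, and ASNS, which uses aspartate and glutamine, fell by 0.99. These genes were chosen after their values were seen.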
